A study of Homo sapiens with 22 samples.

Results

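The regions described here are 10 imprinted gene loci whose regulation is linked to CTCF: H19, IGF2, KCNQ1OT1, CDKN1C, MEG3, DLK1, PEG3, GRB10, MEST and GNAS. Their peaks were chosen by position. A peak belonged to a locus when its summit lay in the RefSeq gene body or within 50 kb of either end. Of 341123 peaks in 12 peak lists, 334 met this rule, and no peak lay in more than 1 of the 10 windows. The lists came from chromatin immunoprecipitation sequencing (ChIP-seq) of hTERT RPE-1, an established human line of retinal pigment epithelium made immortal with telomerase. The series holds 22 libraries, 12 precipitated libraries and 10 inputs, and the inputs were not analysed on their own. Wild-type cells gave the CTCF and WAPL lists, with no spike-in. Clone A2 (mCherry-P2A-FKBP12(F36V)-NIPBL) gave 3 RAD21 lists and 1 HA list, and clone D7 (mGreenLantern-P2A-FKBP12(F36V)-NIPBL) gave 3 RAD21 lists and 1 list each of STAG1, STAG2 and PDS5A. The FKBP12(F36V) domain lets the small molecule dTAGV-1 direct the tagged protein, here NIPBL, to degradation. In both clones RAD21 was profiled in the solvent DMSO (24 h) and in dTAGV-1 for 4 h or 24 h. PDS5A was profiled after 24 h in DMSO, and no treatment is named for the HA, STAG1, STAG2, CTCF and WAPL libraries. The RAD21 and PDS5A libraries carried about 10% of mouse NIH/3T3 chromatin, and the HA, STAG1 and STAG2 libraries carried none. Each group was 1 library of 1 clone or of the wild-type line, so no difference between groups could be checked against replicates, and clones A2 and D7 were not treated as replicates. The degradation of NIPBL is not measured by these lists.

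Imprinted genes are expressed mainly from the maternal or the paternal copy, and the choice follows DNA methylation set in the germ line at imprinting control regions. CTCF is a zinc-finger protein that binds some of these regions on the unmethylated copy only. Cohesin is a ring complex that extrudes chromatin loops with the help of NIPBL and is held at CTCF-bound sites. RAD21 closes the cohesin ring, each ring carries STAG1 or STAG2 as a further subunit, PDS5A modulates the ring, and WAPL releases it from DNA. At the H19 and IGF2 locus, the textbook case, CTCF at a control region upstream of H19 insulates IGF2 from enhancers on the maternal copy. The peak lists do not separate the 2 parental copies, so each value below is for both copies together.

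RefSeq promoter entries were given for 5 of the 10 genes, H19, MEG3, GRB10, MEST and GNAS, with 20 annotated starts in all. The 250 bases before 1 start of each gene are printed because these starts show the range of CTCF and cohesin occupancy met below: no peak in any list at H19, cohesin beside a CTCF peak at MEG3, and CTCF with cohesin at GRB10, MEST and GNAS. Capitals mark CG dinucleotides, where DNA methylation is found. The coordinates are of GRCh38.p14, and each sequence is given 5′ to 3′ on the strand of its gene.
H19, chr11:2001267-2001516, minus strand: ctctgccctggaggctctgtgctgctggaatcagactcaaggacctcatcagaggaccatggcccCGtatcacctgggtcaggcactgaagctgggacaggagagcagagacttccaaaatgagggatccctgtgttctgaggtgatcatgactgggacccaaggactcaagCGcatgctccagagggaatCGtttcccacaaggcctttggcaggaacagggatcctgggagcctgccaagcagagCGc
MEG3, chr14:100825858-100826107, plus strand: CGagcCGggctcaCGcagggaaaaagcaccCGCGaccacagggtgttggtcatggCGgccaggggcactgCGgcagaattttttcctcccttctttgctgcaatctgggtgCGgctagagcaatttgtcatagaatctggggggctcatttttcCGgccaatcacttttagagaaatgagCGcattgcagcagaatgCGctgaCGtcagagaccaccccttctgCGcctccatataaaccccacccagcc
GRB10, chr7:50782897-50783146, minus strand: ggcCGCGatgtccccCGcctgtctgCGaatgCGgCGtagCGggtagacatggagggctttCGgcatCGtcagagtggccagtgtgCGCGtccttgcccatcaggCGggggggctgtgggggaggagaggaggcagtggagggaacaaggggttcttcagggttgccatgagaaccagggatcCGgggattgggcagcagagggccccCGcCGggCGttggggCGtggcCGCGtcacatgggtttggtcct
MEST, chr7:130491079-130491328, plus strand: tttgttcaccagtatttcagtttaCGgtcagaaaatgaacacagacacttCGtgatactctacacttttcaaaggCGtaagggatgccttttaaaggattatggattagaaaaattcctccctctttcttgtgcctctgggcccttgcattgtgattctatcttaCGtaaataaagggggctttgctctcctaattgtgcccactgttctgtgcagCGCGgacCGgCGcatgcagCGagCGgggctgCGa
GNAS, chr20:58839498-58839747, plus strand: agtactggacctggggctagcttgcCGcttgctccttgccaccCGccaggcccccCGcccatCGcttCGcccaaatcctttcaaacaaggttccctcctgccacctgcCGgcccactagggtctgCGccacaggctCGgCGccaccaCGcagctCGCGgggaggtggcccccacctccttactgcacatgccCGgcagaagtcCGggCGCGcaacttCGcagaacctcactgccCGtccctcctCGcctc

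The H19 sequence held 4 CG dinucleotides, the fewest of the 5. MEST held 11, MEG3 13, and GRB10 and GNAS 19 each. Over 35116 RefSeq promoters the median was 11, with quartiles of 3 and 23, so these counts span the ordinary range. In windows of 300 bases (250 before and 50 after a start), a CTCF peak overlapped 7 of the 20 starts of these genes, against 19.6% of 34961 promoters. The share of these starts with a clone D7 DMSO RAD21 peak was 60%, against 20.9% of all promoters. Starts of 1 gene can share a peak, so the 20 starts are not separate observations. A CTCF core motif of 12 letters, 8 of them fixed bases, was searched on both strands. It was present in 5.19% of all 34961 promoters and in 11.5% of those with a CTCF peak. At the 10 loci it was found at 2 of the 20 starts, both of GRB10 and neither with a CTCF peak. A match or its absence describes only these windows.

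Depth limits what each list can show. Read totals were not given, so the average background pileup (the fragments over a base of background, solved from each list's own fold and p) stands for depth. It was 13.4 for CTCF. The RAD21 libraries (DMSO, 4 h, 24 h) had 1.87, 3.16 and 2.83 in clone A2, with 3.00, 4.05 and 3.07 in clone D7. STAG1, STAG2, PDS5A and WAPL had 1.77, 3.14, 2.76 and 2.97, and the depth of HA is unknown. The clone A2 DMSO library was thus shallower than both clone A2 dTAGV-1 libraries. All intervals below are 95% intervals, Wilson for shares and exact for ratios of counts. They cover counting error only. Those for ratios treat both counts as independent, although most treated peaks overlap a DMSO peak.

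The 57 CTCF peaks of the loci were spread unevenly. GRB10 had 14, IGF2 10, CDKN1C 9, GNAS 7, MEG3 6, KCNQ1OT1 4, DLK1 and MEST 3 each, H19 1 and PEG3 0. The median of 5 per window was close to the 4 of all 38151 RefSeq gene windows built the same way. RAD21 in DMSO lay in 8 of the 10 windows, with 43 peaks in clone A2 and 40 in clone D7. H19 and PEG3 held no RAD21 peak in any of the 6 lists. Taking single lists, 17.4% of all gene windows were empty in clone A2 DMSO and 18.8% in clone D7 DMSO. The share empty in all 6 lists was not computed.

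**Figure D1:**
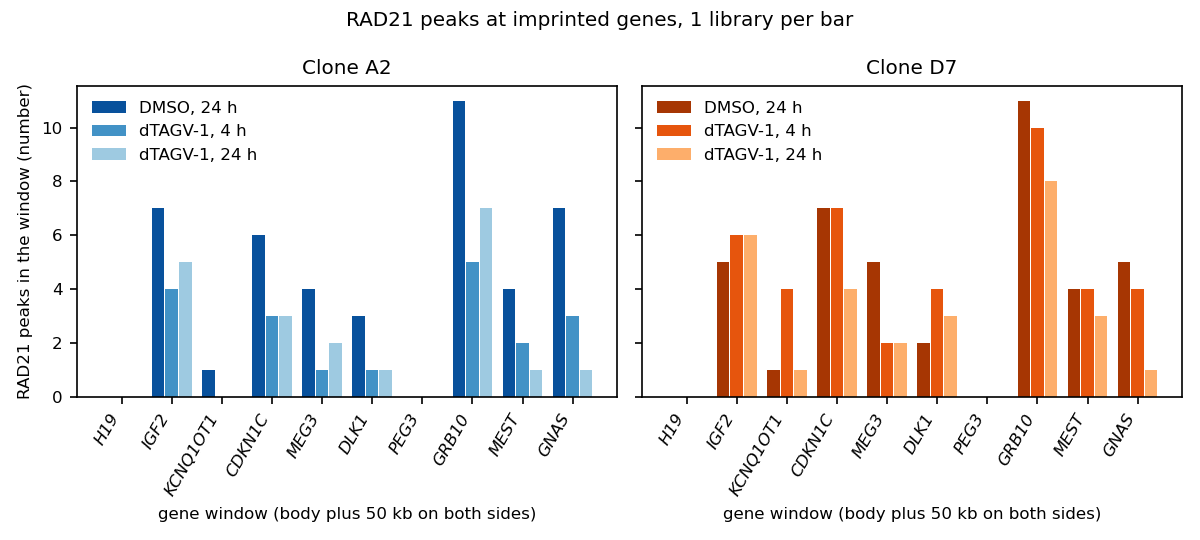
RAD21 peaks (vertical axis, number) in each gene window (horizontal axis) in clone A2, left, and clone D7, right, with 1 library per bar. In clone A2 the bars of 4 h and 24 h dTAGV-1 are below the DMSO bar in each window that has one, whereas in clone D7 KCNQ1OT1, IGF2 and DLK1 have more peaks at 4 h than in DMSO.

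Across the loci, clone A2 had fewer RAD21 peaks after dTAGV-1 and clone D7 had nearly the same number at 4 h. In clone A2 the 43 DMSO peaks became 19 at 4 h, a ratio of 0.442 (0.243 to 0.775), and 20 at 24 h, a ratio of 0.465 (0.259 to 0.808). The whole-list ratios, 0.649 and 0.720, lay inside these intervals. In clone D7 the 40 DMSO peaks became 41 at 4 h, a ratio of 1.025 (0.647 to 1.63; whole list 1.04), and 28 at 24 h, a ratio of 0.700 (0.416 to 1.16; whole list 0.802). For 29 other imprinted genes, all matched in RefSeq and counted outside these windows, the clone A2 ratios were 0.566 and 0.679, and those of clone D7 were 1.06 and 0.849. The 4 h and 24 h comparisons of a clone share its DMSO library. Lists of equal length fix the whole-list ratio at 1. Against that, the clone A2 ratios were 0.864 and 0.909 and the clone D7 ratio at 4 h was 0.824. At equal background pileup the clone A2 ratios were 0.442 and 0.465 (whole list 0.644 and 0.708). The clone D7 ratio at 4 h was then 0.825 (whole list 0.934).

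Each of the 8 windows with a clone A2 DMSO peak had fewer peaks at 4 h, as did 65.8% of 31495 RefSeq gene windows with such a peak. At 24 h it was again 8 of 8, against 60.6%. None of the 8 had more peaks, while 2.1% (4 h) and 6.22% (24 h) of gene windows did. The 8 windows of clone D7 were mixed: 3 had fewer peaks at 4 h (25.4% of 30976 gene windows) and 3 had more (34.3%). At 24 h, 5 of 8 had fewer (53.8%) and 2 had more (9.85%). Neighbouring gene windows overlap, so these shares are a background and not a test. The gene windows were also not matched to the loci for DMSO peak number, and windows with more peaks have more to lose. With empty windows included, the loci held a median of 4 (A2 DMSO) or 4.5 (D7 DMSO) RAD21 peaks per window. All 38151 gene windows had a median of 2 in either list. The part of starting peak number in these shares was not tested.

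A DMSO peak was called retained when a peak of the dTAGV-1 list overlapped it by at least 1 bp. Clone A2 retained 20 of 43 DMSO peaks at 4 h, 46.5% (32.5 to 61.1), against 62.2% of its whole list. At 24 h it retained 21 of 43, 48.8% (34.6 to 63.2), against 64% of the whole list. Both clone A2 intervals ended just below the whole-list share. Clone D7 retained 33 of 40 at 4 h, 82.5% (68.1 to 91.3), against 80% of its list, and 25 of 40 at 24 h, 62.5% (47.0 to 75.8), against 68.8%. Both clone D7 intervals held the whole-list share. Among the 53 DMSO peaks of the other imprinted genes in each clone, clone A2 retained 56.6% at 4 h and 64.2% at 24 h, and clone D7 79.2% and 73.6%. With the lists of a clone cut to equal length by p, clone A2 retained 77.3% (56.6 to 89.9; whole list 87.4%) at 4 h and 86.4% (66.7 to 95.3; whole list 80.9%) at 24 h. Both intervals then held the whole-list share, as they also did with 10 kb flanks. The 4 h interval held it with 100 kb flanks too (37.1 to 62.9; whole list 62.2%). The 24 h interval held it at a −log10 q of at least 10 (46.6 to 77.8, whole list 70.1%) and with summits within 200 bp (32.5 to 61.1, whole list 60.8%). Other settings left it above the interval. At equal background pileup this was so at 4 h (32.5 to 61.1, whole list 62.0%) and at 24 h (34.6 to 63.2, whole list 63.5%). It was also so at 4 h with a −log10 q of at least 10 (38.0 to 70.2, whole list 73.2%) and with summits within 200 bp (30.4 to 58.9, whole list 61.8%). At 24 h it was so with 100 kb flanks (37.1 to 62.9, whole list 64.0%).

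**Figure D2:**
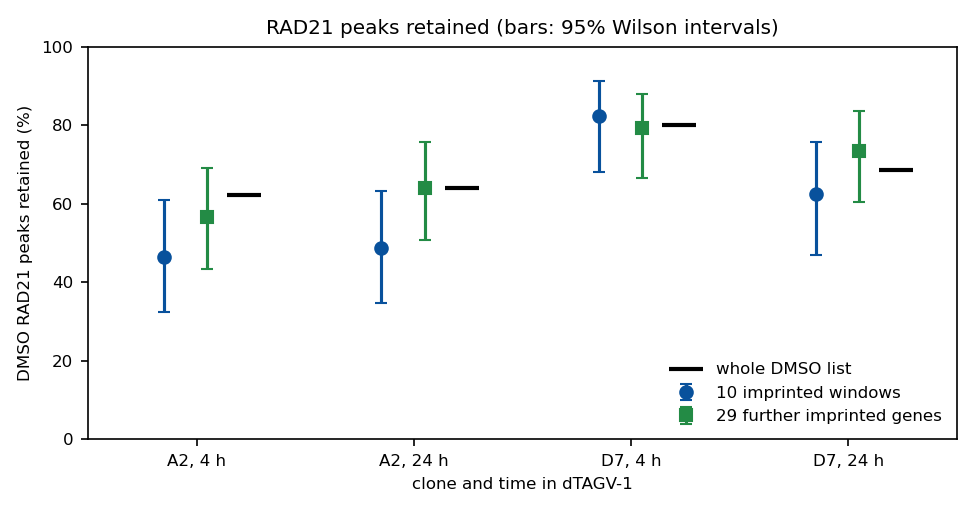
Share of DMSO RAD21 peaks (vertical axis, %) that were overlapped by a peak after dTAGV-1, for the 10 loci, the 29 other imprinted genes and the whole list, with bars for 95% Wilson intervals that cover counting error only. The loci lie below the whole list in clone A2, at 46.5% and 48.8%, and near it in clone D7 at 4 h, at 82.5%.

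Peaks seen after dTAGV-1 but not in DMSO were found in clone D7 and not in clone A2. Of clone A2 peaks at the loci, 0 of 19 at 4 h and 0 of 20 at 24 h lacked a DMSO peak, against 3.64% and 10.8% of the whole lists. In clone D7 these were 8 of 41 at 4 h (whole list 22.7%) and 2 of 28 at 24 h (whole list 13.5%). Of these, 3 of the 8 and 1 of the 2 overlapped a CTCF peak.

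In clone A2, 19 of the 20 RAD21 peaks retained at 4 h (whole list 98.8%) and all 21 retained at 24 h (whole list 95.3%) overlapped CTCF. Clone A2 retained 19 of 35 CTCF-overlapping RAD21 peaks at 4 h (whole list 71.5%) and 21 of 35 at 24 h (whole list 71%). Clone D7 retained 29 of 34 (whole list 86.1%) and 22 of 34 (whole list 77.5%). Of RAD21 peaks with no CTCF peak, clone A2 retained 1 of 8 (whole list 5.19%) and 0 of 8 (whole list 21.4%), and clone D7 retained 4 of 6 (whole list 50.3%) and 3 of 6 (whole list 25.8%). In both sets and both clones, RAD21 on CTCF was retained in a larger share than RAD21 off it. Enrichment differed too, given here as the percentile of a peak's fold within its own list, where 100 is the highest. The median CTCF percentile of clone A2 peaks with CTCF was 86.9 where RAD21 was retained at 4 h and 42.6 where it was not. The whole list gave 76.7 and 49.1. At 24 h clone A2 gave 86.9 and 38.6 (whole list 76.4 and 55.7). Clone D7 gave 67.0 and 44.1 at 4 h (whole list 75.4 and 51.7), then 85.3 and 38.6 at 24 h (whole list 76.9 and 52.1). Retained peaks, with or without CTCF, also had the higher median RAD21 percentile in DMSO. In clone A2 it was 72.1 against 23.2 at 4 h (whole list 68.7 and 20.2) and 71.4 against 18.6 at 24 h (65.6 and 22.9). In clone D7 it was 52.1 against 24.9 (59.7 and 20.4), then 69.7 against 24.9 (65.0 and 22.1). The parts of CTCF and of initial RAD21 enrichment in retention were not tested.

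The share of RAD21 peaks lying on CTCF was close to the whole-list share in most conditions. In DMSO it was 35 of 43 in clone A2, 81.4% (67.4 to 90.3; whole list 85.9%), and 34 of 40 in clone D7, 85% (70.9 to 92.9; whole list 83.1%). At 4 h it was 18 of 19 in clone A2, 94.7% (whole list 97.9%), and 32 of 41 in clone D7, 78.0% (whole list 78.2%). At 24 h it was 20 of 20 in clone A2 (whole list 90.7%) and 24 of 28 in clone D7, 85.7% (whole list 90.7%).

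Seen from CTCF, 33 of the 57 CTCF peaks at the loci carried RAD21 in clone A2 DMSO, 57.9% (45.0 to 69.8). Clone D7 DMSO gave the same number, though not from exactly the same peaks. The whole-list shares were 57.4% for clone A2 and 52.8% for clone D7. With dTAGV-1 the clone A2 number was 18 at 4 h, 31.6% (whole list 42.2%), and 20 at 24 h, 35.1% (whole list 43.6%). Clone D7 had 32 at 4 h, 56.1% (whole list 51.6%), and 23 at 24 h, 40.4% (whole list 45.9%).

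Overlapping peaks of all lists were merged into 75 sites, of which 57 held CTCF and 50 held RAD21 in at least 1 list. The summit given for a site is that of its CTCF peak where it has one. In both DMSO lists 35 sites held RAD21, of which 16 held it in all 6 RAD21 lists and 19 did not. Sites merged the same way over the whole lists numbered 18820 in all 6 lists. Another 12527 were in both DMSO lists but not in all 6. The DMSO lists of the 2 clones matched closely at the loci: 39 of 43 clone A2 peaks overlapped a clone D7 peak, 90.7% (whole list 80.5%), and 37 of 40 clone D7 peaks overlapped a clone A2 peak, 92.5% (whole list 84.4%). All 16 sites with RAD21 in every list held CTCF. They lay at GRB10 (5), IGF2 (4), CDKN1C (3), and MEG3, DLK1, MEST and GNAS (1 each), and none lay at H19, KCNQ1OT1 or PEG3.

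**Figure D3:**
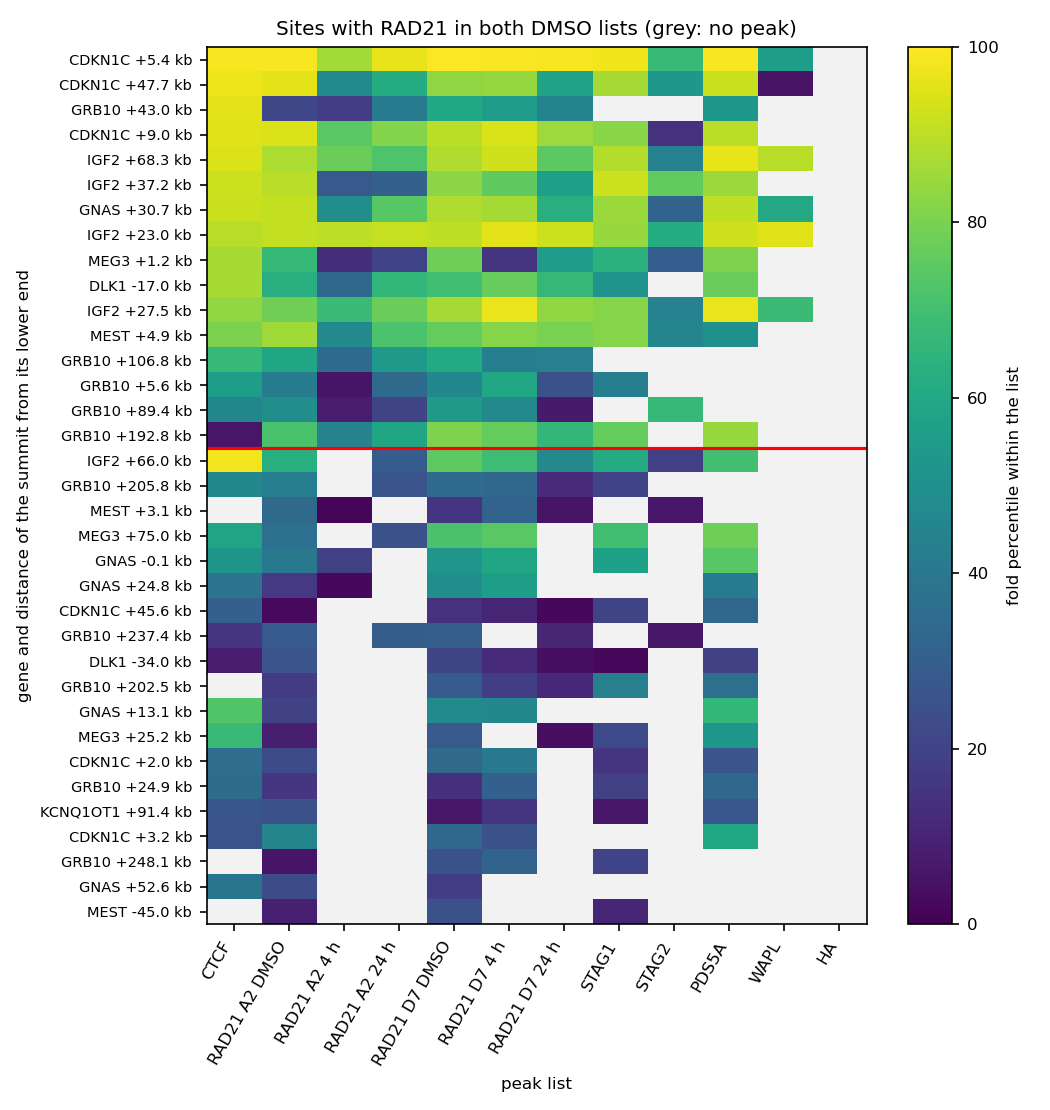
Within-list fold percentile (colour) of the 35 sites with RAD21 in both DMSO lists (rows, named by gene and distance from its lower end in kb) in each peak list (columns); grey means no peak. The 16 sites above the red line have RAD21 in all 6 lists and all carry CTCF, and fewer cells are filled below it.

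The median CTCF enrichment was highest at the sites where RAD21 was in every list and lowest where it was in none, an order that sites merged the same way over the whole lists showed too. At the 16 sites with RAD21 in all 6 lists the median CTCF percentile was 88.2 (range 5.91 to 99.0), and 14 of 16 lay above percentile 50. Where RAD21 was in both DMSO lists but not in all 6, 15 of 19 sites held CTCF, with a median percentile of 38.2 (8.14 to 98.4) and 5 above percentile 50. At the other RAD21 sites, 7 of 15 held CTCF, with a median of 44.1 and 2 above percentile 50. The 19 CTCF sites with no RAD21 had a median of 15.05 (0.200 to 40.2), and 0 lay above percentile 50. Over the whole lists the medians in the same order were 80.8, 57.1, 41.4 and 22.7. The whole-list shares above percentile 50 were 93.8%, 61.7%, 36.3% and 9.94% of the sites with CTCF, and 99.4% of the sites with RAD21 in all 6 lists held CTCF.

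**Figure D4:**
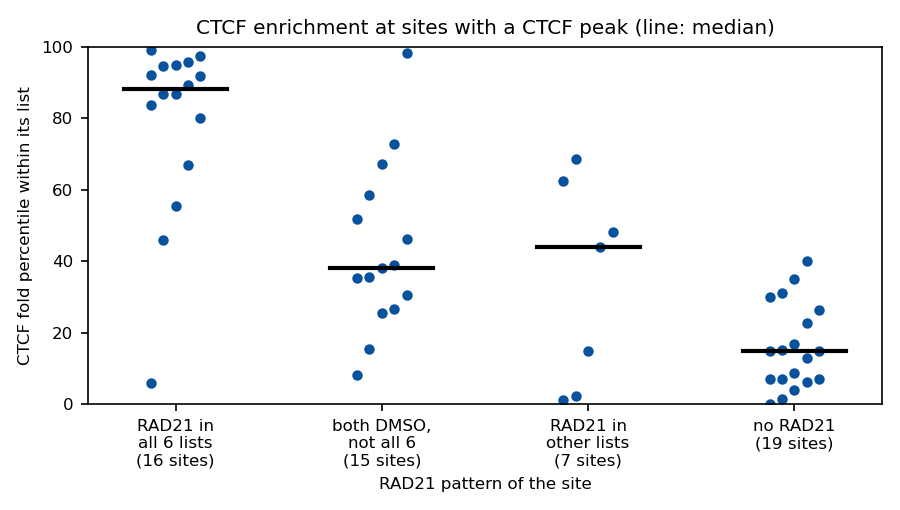
Within-list CTCF fold percentile (vertical axis) of each site with a CTCF peak (points), grouped by the RAD21 pattern of the site (horizontal axis), with a line at the median. The group with RAD21 in all 6 lists has a median of 88.2 and 1 site at 5.91, a GRB10 start; the 19 sites with no RAD21 all lie at or below 40.2.

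At IGF2, which encodes the growth factor IGF-II (gene body chr11:2129117-2149566), 4 sites kept RAD21 in every list. The site nearest the gene, at chr11:2149957-2153158 inside the INS-IGF2 readthrough gene, had its summit 2570 bp above the upper end of IGF2, where lower and upper refer to coordinates and not to strand. Its fold, the authors' enrichment of a summit over local background, was 78.1 for CTCF. For RAD21 it was 50.0, 39.6 and 49.2 in clone A2 (DMSO, 4 h, 24 h) and 44.0, 78.5 and 51.6 in clone D7. Folds are comparable only within a list, and in each of the 6 RAD21 lists this site ranked in the upper part. The CTCF peak of highest fold, 124, lay at chr11:2194418-2195823. There RAD21 was called in 5 lists, with folds of 19.2, none and 6.41 in clone A2, with 22.9, 14.9 and 10.6 in clone D7. IGF2 was the locus with most WAPL peaks, 3.

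KCNQ1OT1, a long non-coding RNA transcribed antisense to KCNQ1 and expressed from the paternal copy, had 4 CTCF peaks of low enrichment, with folds from 2.99 to 6.95. The site with the clone D7 DMSO RAD21 peak of highest fold lay at chr11:2699254-2700351. Its CTCF summit was 248 bp inside the upper end of the gene. RAD21 fold there was 6.62 in clone A2 DMSO, 3.44 in clone D7 DMSO and 3.79 in clone D7 at 4 h, and no peak was called in the other 3 RAD21 lists. Another 4 sites of this window had RAD21 only after dTAGV-1, each in clone D7, with folds from 2.86 to 4.70. The weakest, chr11:2700359-2700807 in clone D7 at 24 h, adjoins the site just described without overlapping it. It is a separate site only by that peak boundary. All 4 lay inside KCNQ1, and 1 of them also inside KCNQ1OT1.

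CDKN1C, which encodes the cyclin-dependent kinase inhibitor p57, had the strongest CTCF peak of the 10 loci. At chr11:2887868-2889742, with its summit 2798 bp above the upper end of the gene, CTCF fold was 134, percentile 99.0. RAD21 fold was 99.7, 33.9 and 73.5 in clone A2, with 111, 157 and 95.5 in clone D7, and PDS5A fold was 124. The sites at chr11:2891186-2893307 and chr11:2929941-2931489 also held RAD21 in every list. A pair of weaker sites nearer CDKN1C, at chr11:2884953-2885778 and chr11:2886094-2886726, held RAD21 in both DMSO lists and in clone D7 at 4 h, and in no other dTAGV-1 list.

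MEG3 and DLK1 share an imprinted domain on chromosome 14. MEG3 is a maternally expressed long non-coding RNA. Its strongest site, chr14:100825920-100828624, covers the annotated start of the sequence shown above, with its CTCF summit 1189 bp inside the gene. CTCF fold was 71.1. RAD21 fold was 22.1, 5.43 and 5.25 in clone A2, with 25.2, 3.76 and 13.3 in clone D7. A RAD21 peak was thus called in every list. DLK1, a paternally expressed membrane protein related to Notch ligands, had its strongest site 17004 bp below the gene at chr14:100709340-100710404. CTCF fold there was 71.0, and RAD21 fold was 19.2, 8.65 and 17.3 in clone A2, with 18.8, 21.2 and 18.2 in clone D7. The MEG3 window had 4, 1 and 2 RAD21 peaks in clone A2, with 5, 2 and 2 in clone D7, fewer after dTAGV-1 in either clone. DLK1 had 3, 1 and 1 in clone A2, with 2, 4 and 3 in clone D7, so only clone A2 was lower after dTAGV-1.

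GRB10 encodes an adaptor protein that binds the insulin and IGF receptors. It is the longest window, 303.4 kb, and held the most RAD21 peaks: 11, 5 and 7 in clone A2, with 11, 10 and 8 in clone D7. Its strongest CTCF peak, fold 104 at chr7:50632487-50633613, had RAD21 folds of 6.07, 6.05 and 8.49 in clone A2, with 13.3, 8.78 and 10.0 in clone D7. Its strongest RAD21 site was elsewhere. At chr7:50781553-50783352, with its summit 14 bp from the annotated start shown above, RAD21 fold was 25.2, 10.95 and 13.8 in clone A2, with 27.8, 20.7 and 18.0 in clone D7. CTCF fold there was 3.69, percentile 5.91. This is the 1 site of the 16 in all 6 lists whose CTCF percentile was under 40.

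MEST encodes a protein of the alpha/beta hydrolase fold and is expressed from the paternal copy. Its strongest site, chr7:130490568-130493860, had its CTCF summit 303 bp from an annotated start and covers the MEST sequence shown above. CTCF fold was 56.4. RAD21 fold was 40.7, 11.7 and 20.7 in clone A2, with 23.9, 27.4 and 28.97 in clone D7. A weaker site at chr7:130440767-130441662, inside the neighbouring gene CEP41, held RAD21 in both DMSO lists, with folds of 4.48 and 5.24, and in no dTAGV-1 list. It had no CTCF peak.

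GNAS encodes the stimulatory G-protein alpha subunit and has several promoters of different parental expression. Its RAD21 peaks (DMSO, 4 h, 24 h) numbered 7, 3 and 1 in clone A2, with 5, 4 and 1 in clone D7. The 1 remaining site in both clones, chr20:58869623-58870998, had a CTCF fold of 86.0 and RAD21 folds of 50.9, 12.4 and 22.5 in clone A2, with 38.7, 35.9 and 16.4 in clone D7. At chr20:58839267-58839944, which covers the GNAS sequence above and its most upstream start, CTCF fold was 17.1. RAD21 fold there was 9.80, 6.16 and none in clone A2, with 10.5, 10.1 and none in clone D7. Another site, chr20:58892115-58892942, held RAD21 in both DMSO lists, with folds of 6.36 and 4.58, and in no dTAGV-1 list, and CTCF fold there was 9.60. Over all loci, 10 of the 35 sites in both DMSO lists were in neither 24 h list, and 4 of these lay at GNAS. The 1 at KCNQ1OT1 adjoins a clone D7 24 h peak. This pattern was not counted over the whole lists, so these numbers have no background.

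H19, the maternally expressed long non-coding RNA of the IGF2 domain, had 1 CTCF peak in its window. It lay 41516 bp below the gene in MRPL23, at chr11:1953484-1953903, with fold 10.1 and no peak of another list. The next CTCF peak above H19 was 73194 bp away, so no CTCF peak was called in a stretch of 120.8 kb that holds the control region known to lie between H19 and IGF2. Of 59115 gaps between CTCF peaks, 8.01% were at least that long, and the median gap was 23.1 kb. The nearest clone D7 DMSO RAD21 peaks were 76372 bp below and 150336 bp above. PEG3, a paternally expressed zinc-finger gene, lay in a CTCF gap of 350.8 kb, a length reached by 1.07% of gaps. An empty window shows that no peak was listed, not that no protein was bound, since a list holds no coverage.

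**Figure D5:**
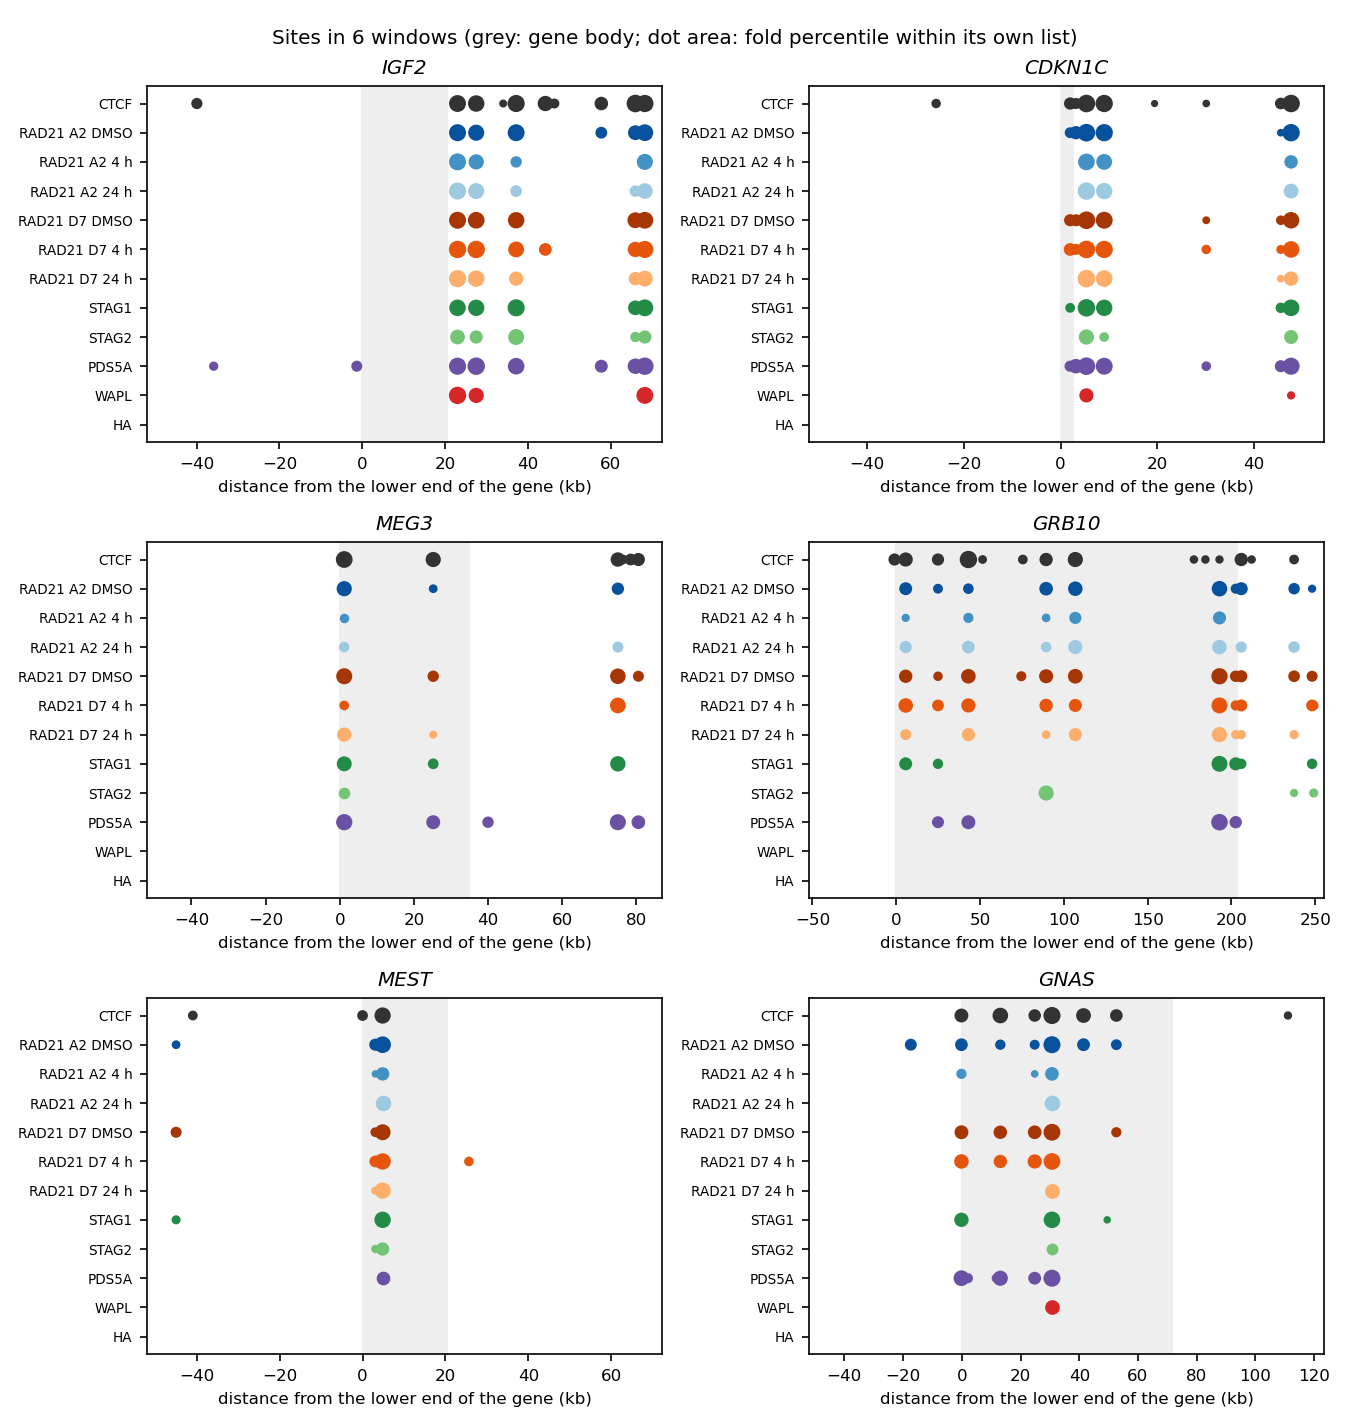
Sites of 6 windows by distance from the lower end of the gene (horizontal axis, kb) in each peak list (rows); a dot marks a peak, its area grows with the fold percentile within that list, and grey marks the gene body. IGF2 has 3 WAPL sites, GRB10 has STAG1 and STAG2 at different sites, and GNAS has 1 RAD21 site at 24 h in either clone.

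Most STAG1, STAG2 and PDS5A peaks at the loci lay on RAD21 and on CTCF. Of 29 STAG1 peaks at the loci, 28 overlapped clone D7 DMSO RAD21, 96.6% (whole list 93.6%), and 24 overlapped CTCF, 82.8% (whole list 87.7%). Of 16 STAG2 peaks, 15 overlapped RAD21, 93.8% (whole list 84%), and 14 overlapped CTCF, 87.5% (whole list 85.4%). Of 35 PDS5A peaks, 29 overlapped RAD21, 82.9% (whole list 72.7%), and 27 overlapped CTCF, 77.1% (whole list 74.9%). Among the 57 CTCF peaks, 23 carried STAG1, 40.4% (whole list 40%), 13 STAG2, 22.8% (whole list 32.3%), and 27 PDS5A, 47.4% (whole list 36.6%).

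A smaller share of STAG1 peaks overlapped STAG2 at the loci than in the whole list, and the reverse share was near its whole list. Of 29 STAG1 peaks, 11 overlapped STAG2, 37.9% (22.7 to 56.0), against 58% of the whole STAG1 list and 59.5% (22 of 37) at the other imprinted genes. Of 16 STAG2 peaks, 12 overlapped STAG1, 75% (50.5 to 89.8), against 69.6% of the whole STAG2 list and 74.2% at the other imprinted genes. Neither share was computed under the alternative settings given below. No STAG2 peak was listed at DLK1, KCNQ1OT1, H19 or PEG3, and at GRB10 it lay at 3 sites, none of them among the 6 with STAG1. The STAG1 library had a background pileup of 1.77 and STAG2 3.14, and their part in this was not tested.

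WAPL peaks lay at 6 sites, 3 at IGF2, 2 at CDKN1C and 1 at GNAS. All 6 sites held CTCF, STAG1, STAG2, PDS5A and RAD21 in all 6 lists, which makes them the 6 sites called in 11 of the 12 lists. The share of WAPL sites over the whole lists that hold all of these was not computed, so this has no background. All 6 WAPL peaks overlapped RAD21 in clone A2 DMSO (whole list 99.1%) and in clone D7 DMSO (whole list 98.5%), and all 6 overlapped CTCF (whole list 99.2%). WAPL was at 10.5% (4.91 to 21.1) of the CTCF peaks, against 4.46% of the whole CTCF list and 10.3% at the other imprinted genes. The WAPL folds ranged from 4.67 at chr11:2929941-2931489 to 14.1 at the IGF2 site nearest the gene. No HA peak lay at any of the 10 loci, and 98.8% of all gene windows held none.

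Of the 8 sites with RAD21 only after dTAGV-1, none was in a clone A2 list, and 3 held CTCF. Their within-list percentiles ran from 0.458 to 40.1. Besides the 4 at KCNQ1OT1, 1 of which adjoins a site with RAD21 in DMSO, there was 1 each at IGF2, DLK1, GRB10 and MEST. The highest fold was 5.93, at chr11:2172941-2173864 in the IGF2 window, where CTCF fold was 37.6. The DLK1 site at chr14:100746858-100747512 was the only one of the 8 called at both 4 h and 24 h, with folds of 5.07 and 4.12.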

How the data were processed

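The 12 deposited peak lists in narrowPeak layout, each naming 1 precipitated library and 1 input, were used as the authors deposited them. Per the submitters' processing notes, BWA, Picard, SAMtools, bedtools, deepTools and MACS2 were among the tools and hg38 and mm10 the builds, with no role given. Names in the lists carry q of 0.001 for CTCF and 0.01 for the rest. The authors deposited a fold enrichment per peak as a ratio, a −log10 p, a −log10 q and a score. The score is 10 times the −log10 q cut to a whole number in 11 lists; in clone D7 at 4 h 5 peaks differ. Folds are the authors' values and were used only within a list.

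Windows were RefSeq GRCh38.p14 gene bodies plus 50 kb on both sides. Peaks were compared by an overlap of at least 1 bp. Background pileup was solved from fold and −log10 p. In 11 lists every solved pileup (−log10 p under 250) was whole within 0.05. No spike-in factor was used. No p-value was computed, since each group is 1 library. Scripts (Python 3.11.15, pandas 2.3.3, NumPy 2.4.6, SciPy 1.17.1, matplotlib 3.10.9) were tested on simulated data.

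The named sites are the CTCF peak and the clone D7 DMSO RAD21 peak of highest fold in each window, sites in both DMSO lists and in no dTAGV-1 list or the reverse, and sites with WAPL or HA; further sites in the text were chosen after their values were seen. The members and lists were chosen with earlier results of these data known. Sequences under the summits and a motif search there were planned but need a genome, which was not used here, so RefSeq promoters were searched instead. Alternatives were a −log10 q of at least 10, lists of equal length by p, summits within 200 bp, flanks of 10 kb and 100 kb, and equal background pileup. Lists of equal length left CTCF and WAPL uncut. For equal background pileup, deeper lists were scaled down to the 1.87 of clone A2 DMSO. CTCF, at 13.4, and HA were not scaled, and STAG1 stayed at 1.77.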

Additional observations from a re-analysis of the deposited data

Results flagged for a closer look

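As deposited, the 2 clones moved in opposite directions in some results, and these differences were not tested, since each clone has 1 library per condition. At 4 h the 10 loci held 0.442 times the DMSO number of RAD21 peaks in clone A2 and 1.025 times in clone D7, which is 41 against 40 peaks. The clone D7 value turned below 1, the direction of clone A2, under 4 of 5 alternatives (0.765, 0.824, 0.825 and 0.963). The clone D7 whole-list ratio was 0.923 at a −log10 q of at least 10, 0.934 at equal background pileup and 1.04 with 10 kb flanks. With lists of equal length it is 1 by construction. The share of RAD21 peaks overlapping CTCF moved at 4 h by 13.3 percentage points in clone A2 and by -6.95 points in clone D7. The whole lists went from 85.9% to 97.9% in clone A2, and from 83.1% to 78.2% in clone D7. Both directions turned with lists of equal length, where clone A2 went from 100% to 94.7% and clone D7 from 88.2% to 92.9%. The clone D7 share also rose at a −log10 q of at least 10 (88.2% to 92.3%) and at equal background pileup (85% to 87.9%).

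Single loci did the same. At 4 h, treated minus DMSO, IGF2 changed by -3 peaks in clone A2 and by 1 in clone D7. KCNQ1OT1 changed by -1 and 3, and DLK1 by -2 and 2. At 24 h IGF2 changed by -2 and 1, and DLK1 by -2 and 1. These are small counts, and 1 peak more or less changes each of them.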

How the results depend on the processing

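No paired analysis was possible because every group has 1 library, so no leaving-out of a replicate could be done either. Of 170 values under alternatives to 29 results, 142 stayed within the interval of the main value and 28 moved out of it. Some of the 142 could not move, since lists already the shortest or shallowest, or not cut or scaled, stayed the same or nearly so. The alternatives also reuse the same peaks, so the interval serves here only as a yardstick. Flanks of 100 kb and equal background pileup moved none of the 29 beyond its interval. The clone D7 ratio at 4 h, 1.025, fell below 1 under a −log10 q of at least 10 (0.765), lists of equal length (0.824), equal background pileup (0.825) and 10 kb flanks (0.963), and was 1.06 with 100 kb flanks.

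With lists of equal length, the clone A2 ratio was 0.864 at 4 h and 0.909 at 24 h, clone A2 retained 77.3% and 86.4%, clone D7 67.6% at 4 h, RAD21 on CTCF was 100% in clone A2 DMSO and 92.9% in clone D7 at 4 h, CTCF with clone A2 DMSO RAD21 was 36.8%, PDS5A on CTCF 96.4% and on RAD21 64.3%, and STAG1 on RAD21 69.6%. With a −log10 q of at least 10, clone A2 retained 63.6% at 24 h, clone D7 67.6% at 4 h, and RAD21 on CTCF was 93.9% (A2 DMSO), 100% (A2 4 h), 92.3% (D7 4 h) and 100% (D7 24 h). Under the same setting PDS5A was 100% on CTCF and 95.5% on RAD21, STAG1 100% on RAD21, and STAG2 100% on both. With summits within 200 bp, RAD21 on CTCF was 80% in clone A2 at 24 h, 70% in clone D7 DMSO and 57.1% at 24 h, CTCF with clone D7 24 h RAD21 was 28.1%, and STAG2 on CTCF 62.5%. With 10 kb flanks, STAG2 on RAD21 was 100%. Lists of equal length fix the whole-list ratio at 1, so the ratios under that setting are to be read against 1. Stricter settings leave fewer peaks. Beyond that the cause was not tested.

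Limits: 1 library per group, lists of unequal depth, no coverage in the lists, and a CTCF list at a stricter q and from wild-type cells only.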
